A study of Homo sapiens with 6 samples.

Results

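Hypoxia target genes are genes switched on when hypoxia-inducible factors (HIFs) accumulate. A list of 35 such entries, chosen for clear cell renal carcinoma, was looked up by symbol in a gene count table from 786-O cells, in which 54261 symbols were counted in 6 libraries. A row existed for 33 of the 35; the entries INSIG1-HIF and JMJD1C-HIF are not gene symbols and had none. Of the 33, 30 had 10 or more reads in 3 or more libraries, and the same 30 passed the filter for low counts and were tested among 14398 genes. The other 3, CXCR4, NDUFA4L2 and RORA, were close to silent and are given as reads.

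The groups were 786-O cells transfected with PHF8-sgRNA, labelled PHF8 knockout (3 libraries), and 786-O cells transfected with Ctrl-sgRNA, labelled PHF8 wildtype (3 libraries). CRISPR-Cas9 was used for both. 786-O is an established line of clear cell renal carcinoma, and all 6 libraries came from cells grown in RPMI-1640 medium with serum in a humidified incubator; the labels name no low-oxygen treatment. The labels give no clone, pool, guide sequence or culture for any library, so p-values cover only how these libraries vary, possibly for technical reasons alone.

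HIFs are pairs of an oxygen-sensitive alpha subunit (HIF1A or EPAS1, which encodes HIF-2α) and a stable partner (ARNT). In normal oxygen, prolyl hydroxylases of the EGLN family mark the alpha subunit and the VHL ubiquitin ligase has it destroyed. 786-O cells lack functional VHL and are known to hold HIF-2α but no functional HIF-1α, so targets of HIF-2α can be on without hypoxia. PHF8 is a JmjC-family histone demethylase that removes repressive methyl marks, and the comparison asks which transcripts differ when it is lost.

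HIFs bind the short DNA core ACGTG or GCGTG. Both strings of letters were searched on both strands in the 250 bases before each start site in RefSeq's promoter table (GRCh38.p14), which held 31 windows for 25 of the 33 genes. At least 1 match lay in 25 of 27 windows (92.6%) of tested members, against 54.8% of 15271 windows of tested genes and 43.2% of all 35116 windows. For ACGTG alone the shares were 66.7% of the tested members' windows, against 22.4% for tested genes and 18.5% for all windows. By the gene's call in knockout cells, matches lay in 11 of 12 windows of members that rose, 5 of 6 of members that fell, and 9 of 9 of members that did not pass the test. Of the tested members' windows, that of P4HA2 and 1 of PDK1's held none, and P4HA2's lies 68224 bases from the outermost start of that gene in GENCODE. A match is a description of the letters, not a bound site. The members were listed as hypoxia targets, so their higher share is no independent evidence that they are. The share of G and C letters in the windows was not compared. Windows of 1 gene can overlap, as happens for LOX, so they are not independent. VEGFA, CCND1, NDUFA4L2, STC1, NDRG1, ZNF395, BNIP3L and LOXL2 had no window.

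The 5 promoters below are shown for the contrasts described further on: BHLHE40 rose and BHLHE41 fell, CA12 rose while CA9 had few reads, and BNIP3, with the most matches, did not pass the test. Each runs 5′ to 3′ on the gene's strand and ends at the gene's outermost start in GENCODE; capitals mark every match, read as CACGT or CACGC where it lies on the other strand, and CACGTG where matches on both strands overlap (an E-box, so counted on each strand).
BHLHE40, chr3:4979187-4979436, plus strand: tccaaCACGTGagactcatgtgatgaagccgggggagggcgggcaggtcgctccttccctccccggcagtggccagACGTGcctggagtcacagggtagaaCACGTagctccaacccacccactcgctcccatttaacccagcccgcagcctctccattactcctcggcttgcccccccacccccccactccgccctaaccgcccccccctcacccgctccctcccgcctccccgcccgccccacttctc
BHLHE41, chr12:26125038-26125287, minus strand: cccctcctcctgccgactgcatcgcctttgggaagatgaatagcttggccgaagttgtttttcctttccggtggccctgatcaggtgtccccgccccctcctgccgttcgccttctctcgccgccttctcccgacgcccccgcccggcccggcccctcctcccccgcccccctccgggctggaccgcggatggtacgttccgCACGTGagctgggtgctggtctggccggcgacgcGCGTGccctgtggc
CA12, chr15:63381847-63382096, minus strand: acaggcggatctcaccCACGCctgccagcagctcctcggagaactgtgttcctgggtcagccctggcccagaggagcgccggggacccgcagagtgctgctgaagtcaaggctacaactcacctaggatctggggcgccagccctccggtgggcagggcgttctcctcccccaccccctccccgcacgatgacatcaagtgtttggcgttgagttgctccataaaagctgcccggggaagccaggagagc
CA9, chr9:35673678-35673927, plus strand: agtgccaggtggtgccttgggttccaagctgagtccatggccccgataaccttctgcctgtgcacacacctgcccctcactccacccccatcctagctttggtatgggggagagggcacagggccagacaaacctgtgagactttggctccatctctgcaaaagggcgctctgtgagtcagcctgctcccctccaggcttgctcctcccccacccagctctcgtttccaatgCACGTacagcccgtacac
BNIP3, chr10:131981968-131982173, minus strand: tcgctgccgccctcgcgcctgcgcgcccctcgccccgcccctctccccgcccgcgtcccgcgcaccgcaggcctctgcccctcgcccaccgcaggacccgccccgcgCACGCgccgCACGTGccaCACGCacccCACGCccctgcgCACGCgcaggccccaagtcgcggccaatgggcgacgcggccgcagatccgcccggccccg
BNIP3 carries 6 matches in 5 separate places, BHLHE40 carries 4 matches, BHLHE41 carries 3, and CA12 and CA9 carry 1 each.

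The libraries held 25632275, 25921090 and 29095133 reads in knockout cells and 21533615, 23760160 and 25055762 in control cells. PHF8 itself (chromosome X) fell to 10.1 ± 3.08 CPM (read counts scaled to library size with TMM factors; SD, n = 3) in knockout cells, against 34.8 ± 1.83 CPM (SD, n = 3) in control cells (log2 fold change -1.78, adjusted p = 1.19e-04). All 8 renal carcinoma markers checked were expressed (summed 6615 to 8175 CPM in knockout and 6115 to 6173 CPM in control libraries). Most of that sum was VIM, at 5988 ± 822 CPM in knockout and 5152 ± 14.9 CPM in control cells (SD, n = 3 each). PAX8 was higher in knockout cells, at 363 ± 43.1 CPM, against 223 ± 11.0 CPM in control cells (SD, n = 3 each). PAX2 was lower in knockout cells, at 3.10 ± 0.456 CPM, against 6.57 ± 0.668 CPM in control cells (SD, n = 3 each). Of markers of other cell types, the endothelial gene CDH5 and the leukocyte genes PTPRC, CD3E and LYZ had 0 reads in every library. Summed fibroblast markers lay at 0.726 to 1.58 CPM in knockout and 3.99 to 4.28 CPM in control libraries, and summed endothelial markers at 2.96 to 4.52 and 2.06 to 2.32 CPM in knockout and control libraries. Summed leukocyte markers, nearly all CD68, which other cells also express, lay at 112 to 122 CPM in knockout and 43.8 to 48.0 CPM in control libraries; the part of these markers in the results was not tested. In bulk RNA, fewer cells of a kind and less RNA per cell cannot be told apart.

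The hypoxia targets did not move as 1 block. In knockout cells 13 of the 30 rose, 7 fell and the other 10 missed the threshold (quasi-likelihood F-test in edgeR; adjusted p below 0.05, by Benjamini-Hochberg over every tested gene). Those called made up 66.7% of members, against a background of 59.7% of all tested genes; 43.3% of members rose, against 28.9% of all genes, and 23.3% fell, against 30.8%. The median log2 fold change was 0.14 over the members and -0.01 over all genes. Past 2-fold, LOX, LOXL2 and P4HA2 rose (3 members, with 9.20% of all genes) and STC1 fell (1 member, with 14.2% of all genes); 23.4% of all genes passed 2-fold in either direction. Knockout and control libraries did not overlap in 21 of 30 members (70.0%), against 66.8% of all genes. With library totals as the only scaling, 10 members rose and 9 fell, their median was -0.03, and the median of all genes was -0.18. Of all 14398 tested genes, 3153 rose and 5441 fell with that scaling.

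**Figure D1:**
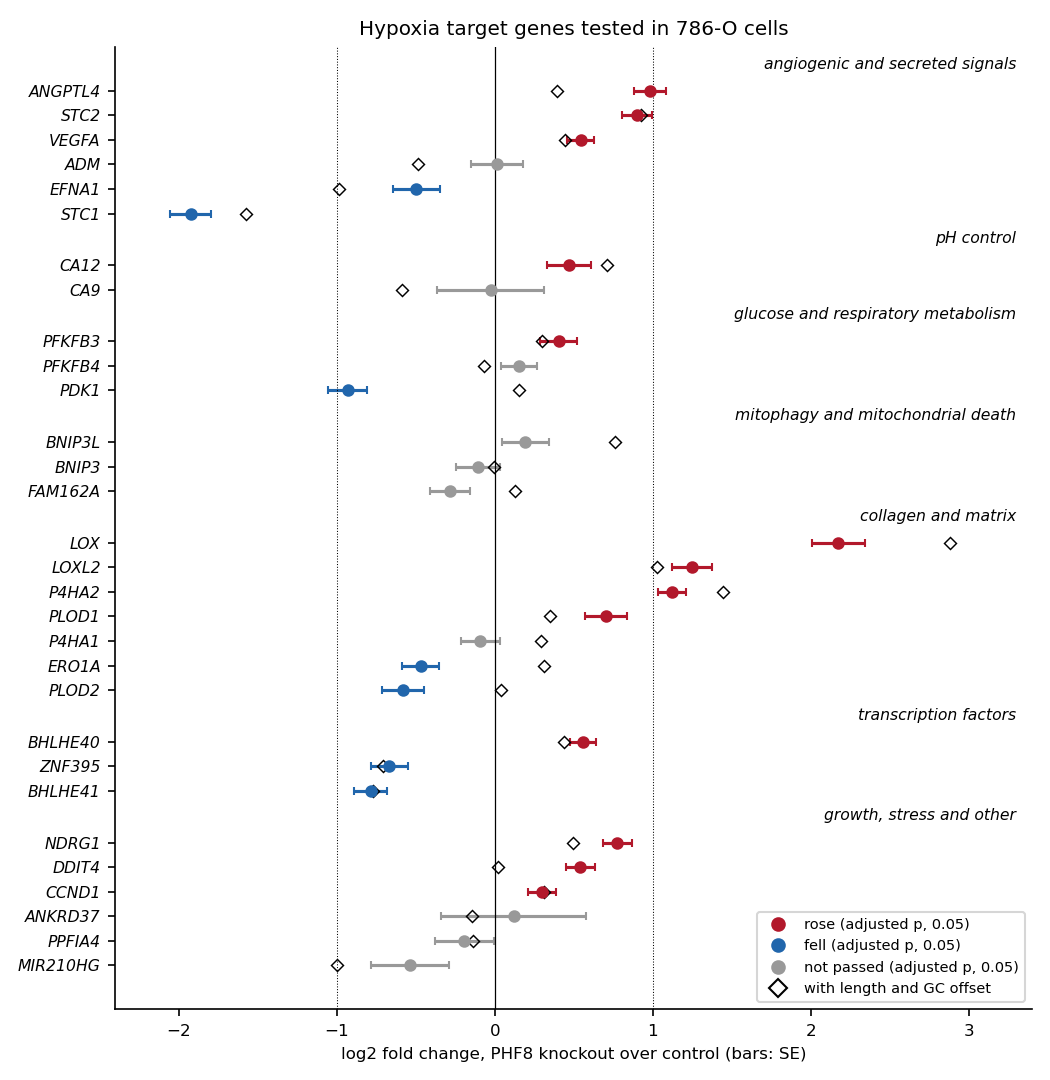
Log2 fold change of the 30 tested hypoxia target genes, PHF8 knockout over control (x axis; bars are SE, dotted lines mark 2-fold), grouped by role; open diamonds are the values with the length and GC offset explained in the text. LOX, LOXL2 and P4HA2 lie right of the 2-fold line and STC1 left of it. The 3 genes of mitophagy and mitochondrial death lie from -0.28 to 0.19 without the offset. The open diamond of BNIP3L lies at 0.76.

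Counted reads also differed between groups along transcript composition, which bears on single members. Among tested genes whose transcript has under 45% GC, 9.61% rose and 55.3% fell, and among those with 45% or more, 41.4% rose and 17.8% fell. Of the 10 members under 45% GC, 2 rose and 4 fell, and of the 20 members at 45% or more, 11 rose and 3 fell. A composition offset that removes smooth trends with transcript length and GC content from each library, along with any group difference that follows them, left 15 members higher and 6 lower, against 30.8% higher and 28.4% lower among all genes (59.2% called). Past 2-fold it left 3 members higher and 1 lower, against 7.71% and 7.89% of all genes. It kept the call and direction of 16 of the 20 called members, ended the call of PDK1, PLOD2 and DDIT4, and turned that of ERO1A. BNIP3L and P4HA1 passed as higher and ADM and MIR210HG as lower with it, and missed the threshold without it.

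**Figure D2:**
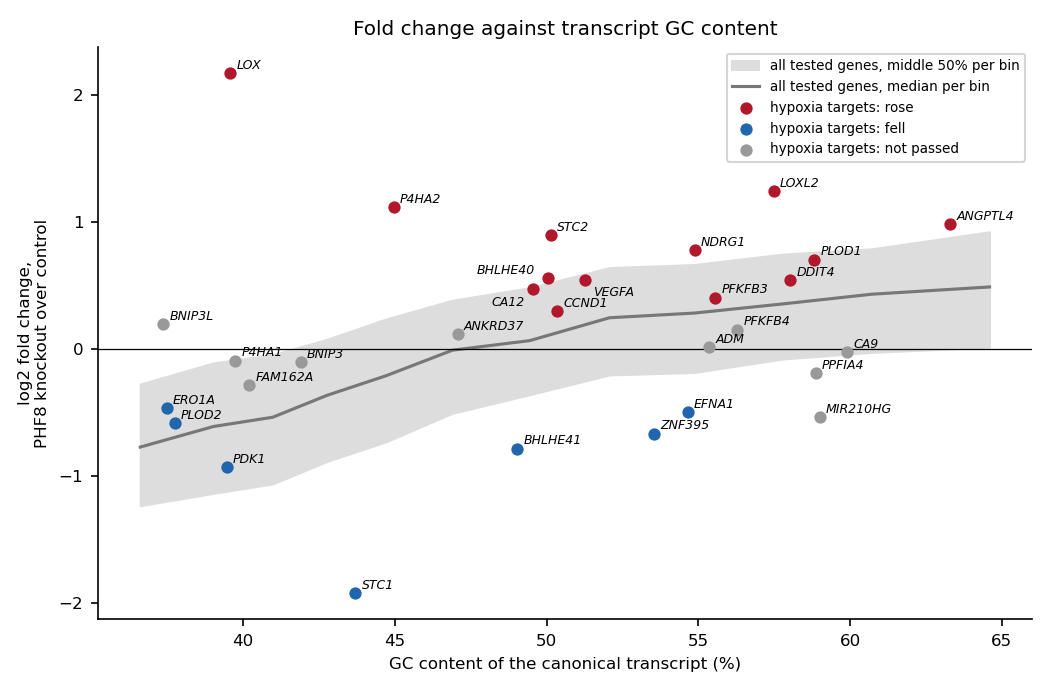
GC content of each member's canonical transcript (x axis, percent) against its log2 fold change, PHF8 knockout over control (y axis); the line and band give the median and middle 50% of all tested genes in 12 GC bins. The line climbs from -0.77 in the lowest bin to 0.49 in the highest. LOX and P4HA2 are among the members far above it, and STC1, ZNF395, MIR210HG and BHLHE41 among those far below.

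Genes that build and harden collagen held the largest rises. LOX, lysyl oxidase, which crosslinks collagen and elastin outside the cell (chromosome 5, 122063195 to 122078413, GRCh38), had 45.8, 57.4 and 41.0 CPM in knockout libraries 1, 2 and 3, against 8.78, 11.8 and 11.2 CPM in control libraries. Every knockout library was above every control library, and the rise was 4.52-fold (log2 fold change 2.18, SE 0.17, adjusted p = 2.18e-05; 2.88 under the composition offset). Its relative LOXL2 (chromosome 8, 23296897 to 23425328) had 851, 641 and 879 CPM in knockout libraries, against 351, 331 and 318 CPM in control libraries. Knockout library 2 was the lowest of the 3 but still clear of the control libraries, and the rise was 2.37-fold (log2 fold change 1.25, SE 0.13, adjusted p = 6.32e-05). LOX has the lower level: per kilobase of transcript it held 9.47 CPM in knockout and 2.09 CPM in control cells, and LOXL2 held 212 and 89.6 CPM in knockout and control cells.

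P4HA2, a catalytic subunit of collagen prolyl 4-hydroxylase, which stabilises the collagen triple helix (chromosome 5, 132190147 to 132295315), had 341, 311 and 327 CPM in knockout libraries, against 156, 147 and 148 CPM in control libraries. The groups were far apart beside their spread (2.18-fold, log2 fold change 1.12, SE 0.09, adjusted p = 2.15e-05). P4HA1, which encodes the alternative catalytic subunit, had 67.8, 88.6 and 70.6 CPM in knockout libraries, against 73.0, 82.6 and 86.0 CPM in control libraries. These overlapped (log2 fold change -0.09, SE 0.13, adjusted p = 0.56); under the composition offset P4HA1 lay at 0.29 (adjusted p = 0.0025) and, leaving out knockout library 2, at -0.22 (adjusted p = 0.045), with adjusted p from 0.0025 to 0.94 over all alternatives.

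The lysyl hydroxylases, which prepare collagen for crosslinking, parted. PLOD1 had 409, 292 and 399 CPM in knockout libraries, against 236, 230 and 210 CPM in control libraries, and rose 1.63-fold (adjusted p = 0.0016). PLOD2, which hydroxylates the telopeptides, had 225, 243 and 227 CPM in knockout libraries, against 275, 381 and 385 CPM in control libraries, and fell, with a log2 fold change of -0.58 (adjusted p = 0.0044). Control library 1 stood apart from the other control libraries for PLOD2. Under the composition offset PLOD2 lay at 0.04 (adjusted p = 0.59; lowest and highest in any alternative, 6.23e-06 and 0.59). ERO1A, an oxidase that drives disulphide bond formation in the endoplasmic reticulum, had 117, 140 and 119 CPM in knockout libraries, against 151, 186 and 182 CPM in control libraries. It fell 1.38-fold (adjusted p = 0.0070), but with the offset it lay at 0.31 on the higher side (adjusted p = 0.0074), and leaving out control library 2 ended the call (adjusted p = 0.053; lowest and highest in any alternative, 3.96e-04 and 0.053).

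Collagen-modifying genes outside the hypoxia list were counted for comparison: 8 of 12 rose, 2 fell and the other 2 missed the threshold, with a median log2 fold change of 0.58. Among all genes 28.9% rose and 30.8% fell. With the offset 7 of the 12 rose and 4 fell, beside 30.8% and 28.4% of all genes. P4HB, the protein disulphide isomerase that is the partner subunit of P4HA1 and P4HA2, had 2108 ± 195 CPM in knockout and 943 ± 48.0 CPM in control cells (SD, n = 3 each; log2 fold change 1.16, adjusted p = 2.70e-05). P3H1, a prolyl 3-hydroxylase, had 330.0 ± 24.9 CPM in knockout and 127.7 ± 2.31 CPM in control cells (log2 fold change 1.37). PLOD3 and PPIB, a lysyl hydroxylase and a prolyl isomerase of the same compartment, had log2 fold changes of 0.68 and 0.59; PPIB lay at 0.05 with the offset (adjusted p = 0.41).

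**Figure D3:**
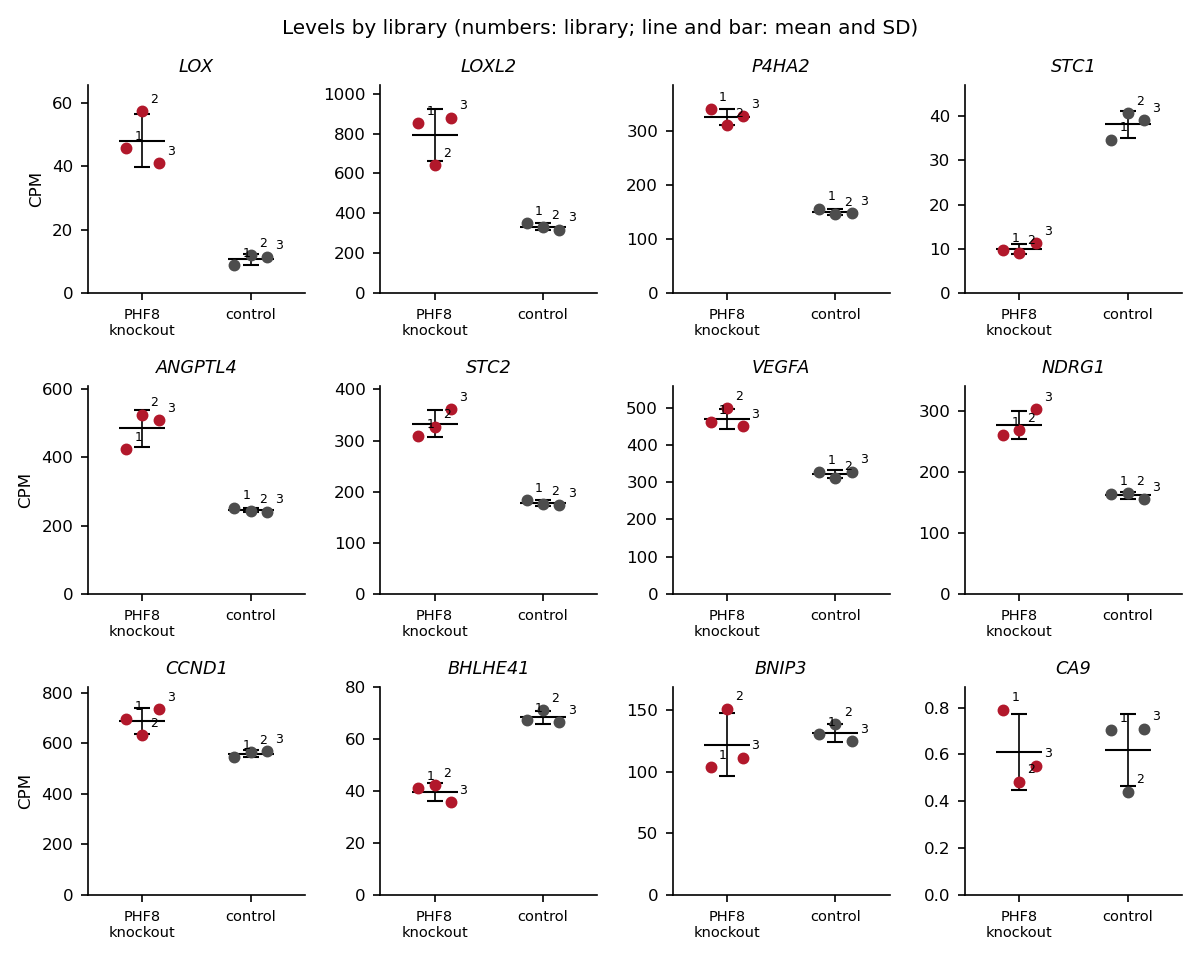
CPM in each library (y axis, linear, from 0) for 12 hypoxia target genes, PHF8 knockout left of control; points are libraries 1 to 3, the line and bar are mean and SD. The groups are separate in every panel but those of BNIP3 and CA9, and knockout library 2 is the lowest of the 3 knockout libraries for LOXL2 and the highest for LOX and BNIP3.

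Secreted signals went both ways. VEGFA, the main angiogenic growth factor of this tumour type, had 460.2, 499 and 449 CPM in knockout libraries, against 327, 310.0 and 328 CPM in control libraries, and rose 1.46-fold (SE 0.09 on the log2 scale, adjusted p = 5.88e-04). ANGPTL4, an inhibitor of lipoprotein lipase, had 424, 525 and 508 CPM in knockout libraries, against 253, 243 and 241 CPM in control libraries. It rose 1.98-fold, just under the 2-fold line (log2 fold change 0.98, SE 0.10, adjusted p = 6.91e-05), and 0.39 on the log2 scale was left with the offset. ADM, which encodes the vessel-dilating peptide adrenomedullin, had 44.8, 72.3 and 55.2 CPM in knockout libraries, against 63.0, 54.3 and 53.2 CPM in control libraries. Its groups overlapped (log2 fold change 0.01, SE 0.17, adjusted p = 0.95), and with the offset it lay at -0.48 (adjusted p = 0.014; lowest and highest in any alternative, 0.014 and 0.99).

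The stanniocalcins, secreted glycoproteins linked to calcium and phosphate handling, moved in opposite directions. STC1 (chromosome 8, 23841929 to 23854806) had 9.70, 9.12 and 11.3 CPM in knockout libraries, against 34.6, 40.7 and 39.0 CPM in control libraries. This 3.79-fold fall was the only one past 2-fold among the tested members (log2 fold change -1.92, SE 0.13, adjusted p = 1.20e-05). STC2 (chromosome 5, 173314723 to 173328447), also a target of the stress factor ATF4, had 309, 327 and 361 CPM in knockout libraries, against 184, 177 and 174 CPM in control libraries. It rose 1.87-fold (log2 fold change 0.90, SE 0.09, adjusted p = 6.64e-05). EFNA1, a membrane-bound ligand of Eph receptors, had 3.42, 3.35 and 3.60 CPM in knockout libraries, against 4.65, 4.88 and 5.08 CPM in control libraries, a fall of 1.41-fold (adjusted p = 0.019). Leaving out control library 2 ended that call (adjusted p = 0.080), as did leaving out control library 3 (adjusted p = 0.086; lowest and highest in any alternative, 3.44e-04 and 0.086). CXCR4, a chemokine receptor, had 2, 0 and 2 reads in knockout libraries and 0 in each control library.

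Of the carbonic anhydrases that acidify the cell's surroundings, CA12 was abundant and CA9 was not. CA12 had 251, 170 and 203 CPM in knockout libraries, against 147, 158 and 145 CPM in control libraries. The groups did not overlap, though knockout library 2 came close to the control libraries (log2 fold change 0.47, SE 0.14, adjusted p = 0.015); scaling by totals ended the call (adjusted p = 0.077; lowest and highest in any alternative, 6.22e-05 and 0.077). CA9, the best-known clear cell carcinoma marker and a HIF-1 target, had 19, 12 and 15 reads in knockout libraries and 16, 11 and 19 reads in control libraries. At this depth no difference was detectable (log2 fold change -0.02, SE 0.34, adjusted p = 0.96). Per kilobase of transcript CA12 lay at 34.1 CPM in knockout and 24.6 CPM in control cells, and CA9 at 0.394 and 0.399 CPM in knockout and control cells.

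Among regulators of glucose use, PDK1, the kinase that shuts the pyruvate dehydrogenase gate to mitochondria, had 11.2, 12.3 and 10.3 CPM in knockout libraries, against 21.1, 21.1 and 22.3 CPM in control libraries. The groups lay well apart, with a fall of 1.91-fold (log2 fold change -0.93, SE 0.12, adjusted p = 2.31e-04). Its canonical transcript, 14072 bases with 39.5% GC, was the longest among the members, and under the composition offset PDK1 lay at 0.15 (adjusted p = 0.52; lowest and highest in any alternative, 2.63e-09 and 0.52). PFKFB3, which makes the activator of phosphofructokinase, had 167, 130.0 and 169 CPM in knockout libraries, against 122, 118 and 112 CPM in control libraries, and rose 1.32-fold (adjusted p = 0.014). Leaving out knockout library 1 (adjusted p = 0.0503), leaving out library 3 (adjusted p = 0.058) or scaling by totals ended the call (adjusted p = 0.099; lowest and highest in any alternative, 1.08e-04 and 0.099). PFKFB4, of the same enzyme family, had 42.5, 34.5 and 37.5 CPM in knockout libraries, against 35.9, 31.6 and 35.5 CPM in control libraries, which overlapped (log2 fold change 0.15, adjusted p = 0.28). NDUFA4L2, which dampens respiratory complex I and is high in most clear cell tumours, had 20, 13 and 5 reads in knockout libraries and 3, 2 and 3 in control libraries. The ratio of knockout to control was 4.14 after division by total reads (exact 95% interval 1.90 to 10.3, counting error only), and with no filter on low counts its adjusted p (edgeR) was 0.00287.

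The mitophagy receptors and their neighbour in function showed no call. BNIP3 (chromosome 10, 131967684 to 131981967), whose promoter is printed above, had 103, 151 and 111 CPM in knockout libraries, against 130.2, 139 and 124.7 CPM in control libraries. Knockout library 2 lay above all control libraries and the other knockout libraries below them (log2 fold change -0.11, SE 0.14, adjusted p = 0.54); without library 2 BNIP3 lay at -0.29 (adjusted p = 0.0062; lowest and highest in any alternative, 0.0062 and 0.99). BNIP3L, its paralog, had 56.2, 75.2 and 53.5 CPM in knockout libraries, against 47.2, 55.3 and 59.1 CPM in control libraries (log2 fold change 0.19, adjusted p = 0.29; 0.76 and 1.01e-04 with the offset). FAM162A, a mitochondrial protein gene linked to hypoxic cell death, had 22.3, 27.7 and 21.9 CPM in knockout libraries, against 27.4, 29.8 and 30.2 CPM in control libraries (log2 fold change -0.28, adjusted p = 0.079). It passed as lower when knockout library 2 was left out (-0.40, adjusted p = 0.0053) and when scaled by totals (-0.45, adjusted p = 0.015; lowest and highest in any alternative, 0.0053 and 0.26). Under the offset its direction turned, at 0.13 (adjusted p = 0.19).

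The basic helix-loop-helix repressors BHLHE40 and BHLHE41, which also act in the circadian clock, moved apart. BHLHE40 had 140.5, 135 and 139 CPM in knockout libraries, against 94.9, 92.7 and 93.7 CPM in control libraries, with no overlap (log2 fold change 0.56, SE 0.08, adjusted p = 4.48e-04). BHLHE41 had 41.0, 42.2 and 35.7 CPM in knockout libraries, against 67.2, 71.1 and 66.5 CPM in control libraries, a fall of 1.72-fold (adjusted p = 2.36e-04). ZNF395, a zinc finger gene induced by hypoxia, had 50.6, 42.1 and 52.8 CPM in knockout libraries, against 83.6, 74.1 and 73.2 CPM in control libraries, a fall of 1.59-fold (adjusted p = 0.0011). All 3 kept their direction and call with the offset. RORA, a nuclear receptor gene, had 1 read in knockout library 3 and 0 reads in the other libraries.

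CCND1, the cyclin D1 gene and a HIF-2 target of these cells, had 697, 633 and 735 CPM in knockout libraries, against 544, 565 and 568 CPM in control libraries. The groups did not overlap but the rise was small, 1.23-fold (adjusted p = 0.015), and scaling by totals (adjusted p = 0.21) or leaving out knockout library 3 ended the call (adjusted p = 0.064; lowest and highest in any alternative, 6.37e-04 and 0.21). NDRG1, a stress- and differentiation-linked gene, had 261, 268 and 304 CPM in knockout libraries, against 165, 166 and 156 CPM in control libraries, and rose 1.71-fold (adjusted p = 1.45e-04). DDIT4, which restrains mTORC1 and also responds to ATF4, had 245, 234 and 213 CPM in knockout libraries, against 166, 159 and 150.1 CPM in control libraries. It rose 1.46-fold (adjusted p = 9.88e-04), with 0.02 on the log2 scale left under the offset (adjusted p = 0.81; lowest and highest in any alternative, 6.37e-06 and 0.81).

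Low-level members gave less firm values. MIR210HG, the host transcript of the hypoxia microRNA miR-210, had 17, 22 and 25 reads in knockout libraries and 30, 27 and 34 reads in control libraries. In CPM the groups did not overlap, at 0.708 to 0.919 CPM in knockout and 1.08 to 1.32 CPM in control libraries, and the test was not passed (log2 fold change -0.54, SE 0.25, adjusted p = 0.088). It passed when scaled by totals (-0.71, adjusted p = 0.035) and under the offset (-0.998, adjusted p = 0.0064; lowest and highest in any alternative, 0.0064 and 0.25); mature miR-210 was not analysed here. PPFIA4, a liprin gene, had 83, 65 and 99 reads in knockout libraries and 77, 94 and 106 in control libraries (adjusted p = 0.40). ANKRD37, a small ankyrin repeat gene, had 10, 16 and 12 reads in knockout libraries and 15, 14 and 5 in control libraries (adjusted p = 0.84).

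Related genes were also set against each other within each library, which removes the effect of library scaling. The log2 ratio of reads did not overlap between knockout and control libraries in 7 of 8 pairs, each with an exact two-sided permutation p of 0.10 (0.11 adjusted over the 8 pairs), the smallest that 3 against 3 libraries allow. For single genes, 66.8% of all tested genes did not overlap. No such share was worked out for ratios of other gene pairs, so the count does not set these pairs apart. STC2 to STC1 moved most: 33.1 reads of STC2 for each of STC1 in knockout cells, against 4.68 in control cells, a 7.08-fold change of the ratio (log2 ratio 5.05 ± 0.10 in knockout and 2.23 ± 0.16 in control cells; SD, n = 3 each). P4HA2 to P4HA1 was 4.34 in knockout and 1.87 in control cells, 2.33-fold higher. BHLHE41 to BHLHE40 was 0.286 in knockout and 0.728 in control cells. PLOD2 to PLOD1 was 0.638 in knockout and 1.52 in control cells, so PLOD1 had more reads in knockout and PLOD2 more in control cells; on the log2 scale this ratio changed by -1.26, and by -0.31 with the length and GC offset. LOX to LOXL2 changed by 0.94 on the log2 scale, and by 1.85 with the offset. BNIP3 to BNIP3L changed by -0.31, and by -0.77 with the offset. PFKFB4 to PFKFB3 changed by -0.24, and by -0.37 with the offset. The CA12 to CA9 ratio overlapped (0.47 on the log2 scale, exact permutation p = 0.30; 1.30 with the offset).

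**Figure D4:**
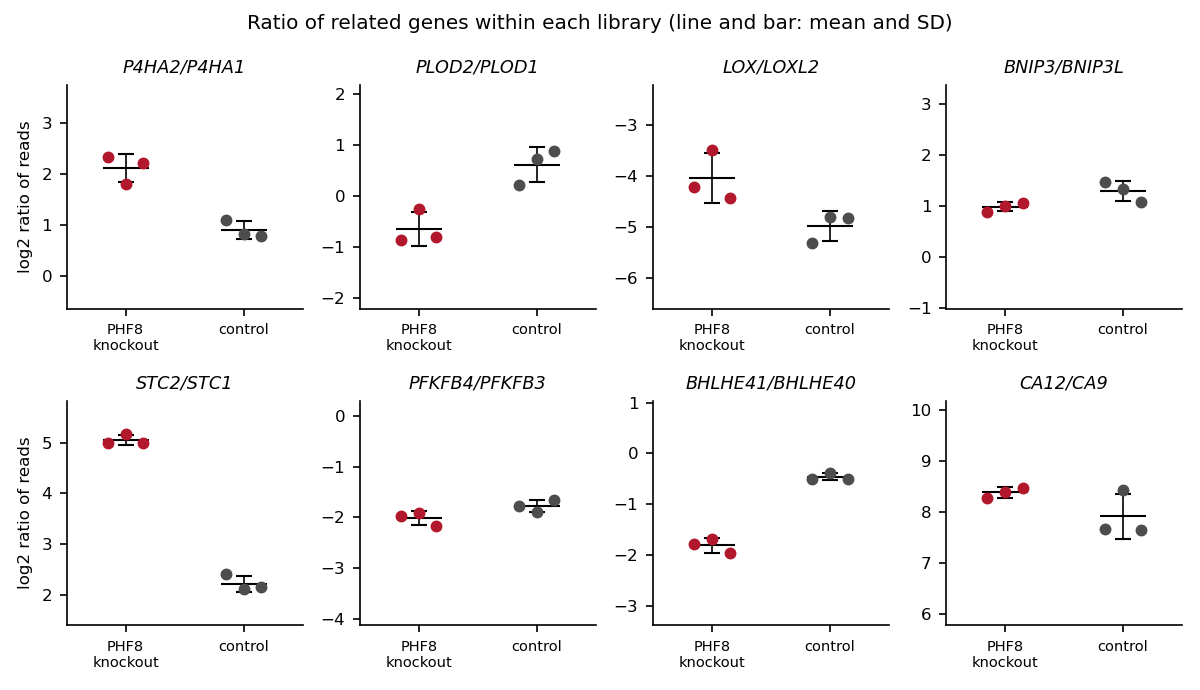
Log2 ratio of reads of the first to the second gene within each library (y axis, each panel spanning the same range), PHF8 knockout left of control, for 8 pairs; points are libraries, line and bar are mean and SD. STC2/STC1 shows the widest gap, at 5.05 in knockout and 2.23 in control cells, and only CA12/CA9 overlaps.

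Set side by side per kilobase of canonical transcript, CCND1 (162 CPM in knockout, 132 in control cells) and ANGPTL4 (259 in knockout, 131 in control cells) led the members in control cells and hardly differed there. In knockout cells the order was ANGPTL4, LOXL2 (212 CPM) and CCND1. PLOD2 ranked 11 in knockout and 3 in control cells. The summed level of the 33 genes was 5169 to 5543 CPM in knockout and 3775 to 3884 CPM in control libraries, with no overlap. Without the 2 most abundant members of each library it was 3855 to 3929 CPM in knockout and 2869 to 2939 CPM in control libraries. These 2 were CCND1 and LOXL2 in the knockout libraries and control library 1. In control libraries 2 and 3 they were CCND1 and PLOD2, so the latter sums do not cover the same genes throughout.

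Within groups, members varied more among knockout libraries (median coefficient of variation 11.4%) than among control libraries (5.27%). Knockout library 2 was the highest or lowest of the knockout libraries in 26 of 30 members (86.7%), close to the 82.1% of all tested genes. It was the highest for 13 members, among them ADM, BNIP3, BNIP3L, LOX and P4HA1, at 128% to 145% of the mean of the other knockout libraries. It was the lowest for 13, among them PLOD1, LOXL2 and CA12, at 72.3% to 74.8% of that mean. Without it 13 members rose and 10 fell, BNIP3, FAM162A and P4HA1 passing as lower. Of all 14398 tested genes, 4609 rose and 4857 fell without knockout library 2.

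Of 12 tested genes of the HIF machinery itself, 2 rose, 3 fell and 7 missed the threshold, beside 28.9% of all genes that rose and 30.8% that fell. EGLN3, a prolyl hydroxylase that is itself a HIF target, had 15.7, 18.2 and 16.2 CPM in knockout libraries, against 8.12, 7.89 and 6.87 CPM in control libraries, and rose 2.19-fold (adjusted p = 1.36e-04; 1.13 on the log2 scale with and without the offset). TCEB2, now named ELOB, a subunit of the VHL ligase, rose with a log2 fold change of 0.91, and of 0.28 under the offset. HIF1A, EGLN1 and CUL2, a scaffold of that ligase, fell by 0.44, 0.34 and 0.79 on the log2 scale, and none of these 3 calls held with the offset (adjusted p = 0.15, 0.38 and 0.11). EPAS1 had 123.8 ± 16.6 CPM in knockout and 123.1 ± 3.3 CPM in control cells (SD, n = 3 each; log2 fold change 0.01, SE 0.11, adjusted p = 0.96). ARNT (-0.22), ARNT2 (-0.34), VHL (-0.15), HIF1AN (0.19), TCEB1, now ELOC (0.19), and RBX1 (0.17) did not pass. HIF3A had 0 CPM in both groups, and EGLN2 had 0.0269 CPM in knockout and 0 CPM in control cells. Whether reads of EGLN2 were lost to an overlapping gene in the counting was not tested. Its value therefore does not show that EGLN2 is silent. With the offset HIF1AN (0.81) and TCEB1 (0.49) passed as higher.

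HIF targets outside the list were counted in the same way. Of 20 genes of glucose uptake and glycolysis, 7 rose, 5 fell and 8 did not pass (median log2 fold change 0.04). Among all genes 28.9% rose and 30.8% fell. With the offset 3 of the 20 rose and 9 fell, beside 30.8% and 28.4% of all genes. ALDOA and PGK1 rose by 0.84 and 0.48, and SLC2A3 and ENO2 fell by 0.86 and 0.63, on the log2 scale; these 4 kept call and direction with the offset, but their log2 fold changes under it were 0.27 for ALDOA, 0.98 for PGK1, -0.65 for SLC2A3 and -1.01 for ENO2. Of 28 further targets 7 rose, 6 fell and 15 did not pass (median -0.03). With the offset 13 of the 28 rose and 4 fell, beside 30.8% and 28.4% of all genes. SPAG4, a nuclear envelope protein gene, had 20.9, 26.3 and 20.5 CPM in knockout libraries, against 7.55, 6.81 and 6.46 CPM in control libraries (log2 fold change 1.70, SE 0.15). KDM3A, a JmjC-family demethylase like PHF8, had 12.7, 11.8 and 12.7 CPM in knockout libraries, against 26.2, 30.5 and 32.0 CPM in control libraries (log2 fold change -1.26, SE 0.12). NOL3, an apoptosis repressor, had a log2 fold change of 0.97, and of 0.36 under the offset.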

How the data were processed

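RNA-seq read counts of 3 PHF8 knockout and 3 control libraries of 786-O cells were used. The deposited values are raw counts per gene symbol; per the labels, filtered reads had been mapped to GRCh38 by HISAT2 (version 2.0.4, per the submitters' processing notes), and HTSeq gave the counts. The HTSeq version, its strand setting and its annotation were not given in the sources used here. Reads shared with antisense, overlapping or near-identical genes are therefore uncertain. Columns were matched to samples by title.

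Knockout was tested against control with edgeR 4.0.16 (R 4.3.3): quasi-likelihood test, TMM factors (0.936 to 1.07), filterByExpr, prior count 0.125, Benjamini-Hochberg adjustment over 14398 genes. CPM uses the same factors; SE is the log2 fold change over the root of F. Pair ratios added 0.5 to each count. Positions, lengths and GC content come from GENCODE on GRCh38 by symbol (92.4% of tested genes); the offset used lowess (span 0.3). Libraries of a group differed by more than sampling noise (chi-square per degree of freedom 3.10 to 75.7). Alternatives were DESeq2 1.42.0, limma-voom (limma 3.58.1), other factors and filters, the replicate number as a block and leaving out each library. The test was checked only on simulated counts with few changed genes and no trend with length or GC content. That check does not cover data such as these, in which 59.7% of genes were called. Pair ratios under the offset were added after seeing the data. Members, gene lists and the offset were chosen with earlier results of these data known. All members were named; values by library were given for members past 2-fold, for 11 well-known targets and for pairs, and for most others; of other lists, up to 4 called genes with the smallest p and the whole HIF core. A further gene that this rule names is not reported here.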

Additional observations from a re-analysis of the deposited data

How the results depend on the processing

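Of the 20 called members, 12 kept direction and call in all 16 alternatives: ANGPTL4, BHLHE40, BHLHE41, LOX, LOXL2, NDRG1, P4HA2, PLOD1, STC1, STC2, VEGFA and ZNF395. Leaving the length and GC offset aside, 15 did. Of the 10 uncalled members, 4 stayed uncalled in every alternative that tested them: CA9, PFKFB4, ANKRD37 and PPFIA4. CA9 and ANKRD37 did not pass the stricter filter on low counts, so that alternative did not test them. Scaling by library totals only gave 2 members that fell past 2-fold, a member median of -0.031, 6 HIF core genes that fell and 4 glycolysis genes that rose. Of all 14398 tested genes it gave 3153 that rose, 5441 that fell and 2684 that fell past 2-fold. The offset turned the sign of ADM (-0.48), PDK1 (0.15), P4HA1 (0.29), PLOD2 (0.039) and ERO1A (0.31), each called with or without it, and of FAM162A (0.13), PFKFB4 (-0.07) and ANKRD37 (-0.14), called in neither. It gave 4 HIF core genes that rose and 0 that fell, and 3 glycolysis genes that rose and 9 that fell. It also gave 13 further HIF targets that rose and 4 other collagen-modifying genes that fell. Of all tested genes 30.8% rose and 28.4% fell with the offset. By construction it removes whatever separates the groups along either property. Leaving out 1 library at a time gave 11 to 13 members that rose and 5 to 10 that fell. It gave 1 to 3 HIF core genes that fell and 2 to 5 glycolysis genes that fell. These settings also have fewer libraries, and the cause of the shifts was not tested. Of all 14398 tested genes, 3553 to 4609 rose and 3539 to 4857 fell in these settings. Same-numbered libraries did not deviate together (correlations 0.02, -0.044 and 0.011), so no pairing by number was detected. Whether they were prepared together cannot be told from these values or the labels. With the replicate number as a block, 13 members rose and 7 fell, and of all genes 3895 rose and 4413 fell. Values of members with under 40 reads in every library (CA9, ANKRD37, MIR210HG) are limited by depth.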
